A study of Homo sapiens with 8 samples.

Results

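These data follow 9 genes that are often listed among the classic transcripts induced by low oxygen, TMEM45A, FAM162A, ZNF395, WSB1, PPFIA4, ERO1A, CITED2, CXCR4 and MAFF, through 24 h of hypoxia in SJRH30 cells. The 9 genes were chosen with earlier results of these data known, so their counts beside those of all probe sets are descriptive. For these genes the probe sets were taken by annotation alone: every probe set of the array whose single annotated gene symbol was one of the 9 names was followed. This gave 18 probe sets of 22215 that are not controls, for all 9 genes of 11963 genes with a probe set of their own. WSB1 had 5 probe sets, CXCR4 had 3, FAM162A, CITED2 and MAFF had 2 each, and the other 4 genes had 1 each. A further probe set, 221123_x_at, is annotated to both FBXO16 and ZNF395 and was not counted.

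SJRH30 is an established human line of alveolar rhabdomyosarcoma, a childhood tumour with features of skeletal muscle. Cells were collected at 0 h, before hypoxia, and after 6, 12 and 24 h in a chamber at 1% oxygen, with 2 arrays per time and 8 in all. The labels call the replicates biological but do not say whether they came from separate cultures, so p-values measure the spread between these arrays, which may be technical. The later times have no counterpart in normal oxygen here, and effects of hours in culture and of hypoxia cannot be told apart.

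When oxygen falls, the prolyl hydroxylases that mark the alpha subunits of the hypoxia-inducible factors (HIF) for destruction slow down, the subunits accumulate, and the dimer with ARNT binds short core motifs in DNA near its target genes. The best known targets serve glucose uptake, glycolysis and blood vessel growth. The 9 genes here are less often described: they include an enzyme of protein folding, a ubiquitin ligase subunit, a receptor, scaffold and membrane proteins, and transcriptional regulators, among them CITED2, a feedback inhibitor of HIF itself. In tumour cells several of them have been studied for cell survival, migration or the response to treatment.

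The labels name the cells muscle fibroblasts. At 0 h the mean log2 values of 10 measured markers of skeletal muscle or rhabdomyosarcoma ran from 3.69 (MYH3) to 13.83 (ACTC1), with MYOD1 at 12.08, MYOG at 9.89 and PAX3 at 7.77. Those of 9 fibroblast markers ran from 3.67 (POSTN) to 10.68 (COL3A1). The deposited values hold no detection calls, so a low value cannot be read as absence. Summed over a list, the log2 values of the 10 muscle markers lay between 100.4 and 101.3 on the 8 arrays, and those of 9 fibroblast markers between 56.3 and 57.5. The 6 endothelial markers summed to 33.4 to 34.0 at 24 h and to 32.4 to 32.7 at 0 h, and the 5 immune markers to 22.3 to 23.1 over all arrays. The 6 epithelial markers summed to 30.5 on the array of 12 h replicate 2 and to 28.3 to 29.4 on the other 7, and the 12 h replicates had the lowest correlation of the 4 pairs (0.997). Without that array, 12 of the 18 probe sets described here were called higher at 12 h, against 13 with it. Single markers were called in limma within these sums. At 24 h MYOG (0.31), MYCN (0.32), MYH3 (0.57), TEK (0.37) and EPCAM (0.41) were higher and ACTC1 (-0.20) and CDH15 (-0.33) lower, at 12 h MYCN (0.26) and COL3A1 (0.22) were higher, and at 6 h TEK (0.31) and COL3A1 (0.34). Among 24 control probe sets for RNA added during preparation, the mean difference from 0 h was 0.47, 0.43 and 0.65 on the 6, 12 and 24 h arrays. Among 18 control probe sets for the hybridization step, it was 0.25, 0.19 and 0.19. The part of these shifts in the results was not tested.

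Of the 9 genes, 7 rose early and stayed up, MAFF was called higher at 24 h alone, and CITED2 was not called higher. At 6 h, 13 of the 18 probe sets, from 7 genes, were called higher than at 0 h and 0 were called lower (limma, Benjamini-Hochberg adjusted p under 0.05 over all probe sets; 1 was lower at an unadjusted p under 0.05). The background was 1.85% of all probe sets called higher and 0.855% called lower. At 12 h again 13 were called higher, against 6.36% of all probe sets, and 1 was called lower, against 9.85%. At 24 h, 15 probe sets from 8 genes were called higher (background 6.86%) and 1 lower (7.8%). The median log2 change of the 18 probe sets was 0.46, 0.41 and 0.51 at 6, 12 and 24 h, beside -0.02, 0.00 and -0.02 for all probe sets.

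Sorted by their calls, 13 probe sets were higher at all 3 times, a pattern held by 1.56% of all probe sets. These were the single probe sets of TMEM45A, ZNF395, PPFIA4 and ERO1A, 1 of the 2 of FAM162A, all 5 of WSB1 and all 3 of CXCR4. The 2 MAFF probe sets were called at 24 h alone. A CITED2 probe set was called lower at 12 and 24 h, and the other CITED2 probe set and a FAM162A probe set were called at no time, as were 78.8% of all probe sets. No probe set rose at 6 h and lost its call by 24 h. An F-test on all 4 times called 15 of the 18 and at least 1 for each gene, against 12.6% of all. The 6 h count became 6 or 7 when 1 of the 4 arrays of 0 and 6 h was left out, a fit that lends the remaining array the spread of the other times. The 6 probe sets called at 6 h in each of the 8 fits that left out 1 array were those of TMEM45A, ZNF395, PPFIA4 and ERO1A with FAM162A 220942_x_at and WSB1 213406_at. With 1 probe set per gene, 7, 7 and 8 of the 9 genes were called higher at 6, 12 and 24 h, against 2.32%, 7.13% and 8.59% of 11963 genes.

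**Figure D1:**
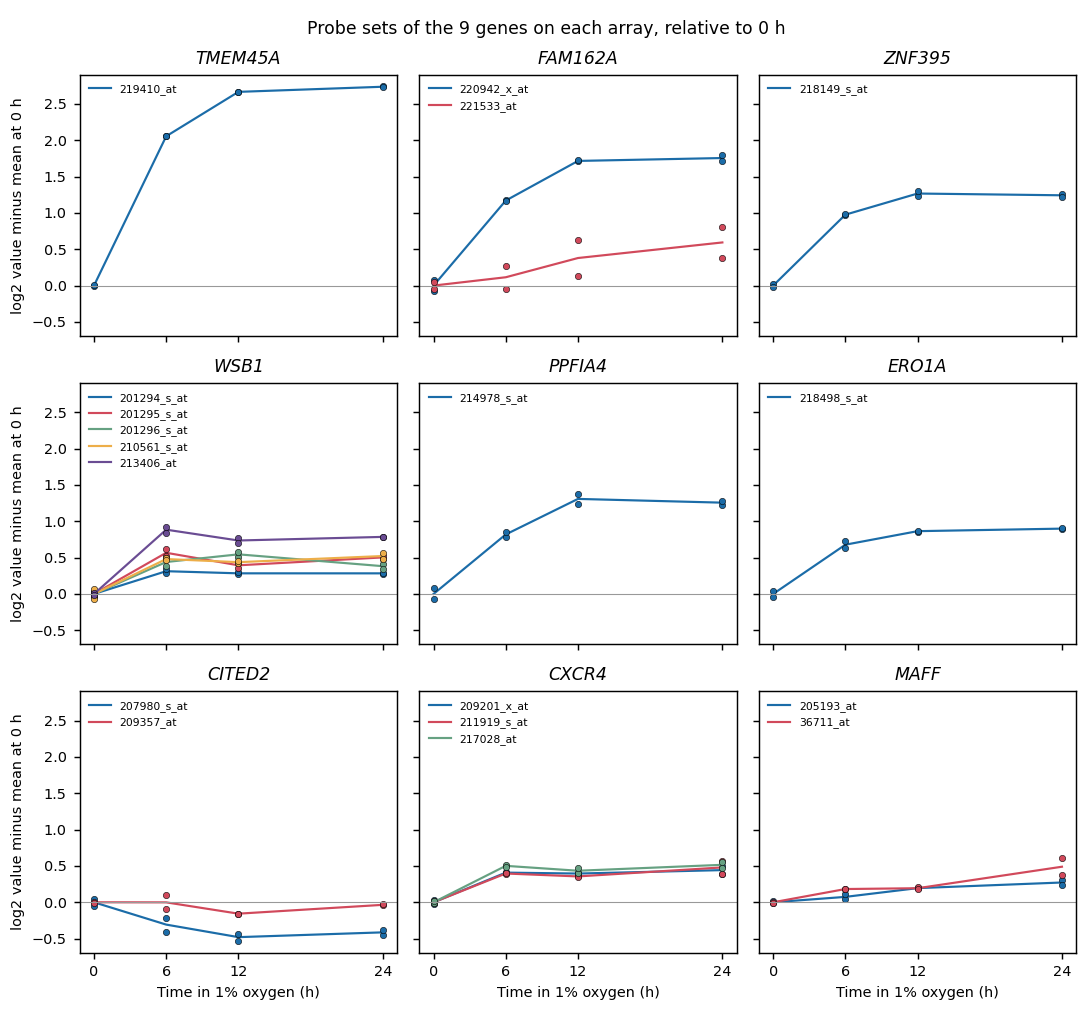
Log2 value of each probe set on each array minus its mean at 0 h (y axis), against hours in 1% oxygen (x axis), 1 panel per gene. Points are arrays and lines join the means of the 2 arrays of a time. TMEM45A reaches 2.74 at 24 h, the CXCR4 lines lie between 0.36 and 0.52 from 6 h on, MAFF is highest at 24 h and the CITED2 lines lie at or below 0.

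The windows of 250 bases before the annotated start were read to show which of these genes carry the HIF core letters close to their start. Windows from RefSeq promoter sequences (GRCh38.p14) were read for 8 of the 9 genes. ZNF395 was left out, so the member counts below say nothing on its window. ACGTG and GCGTG were searched on both strands. A palindromic stretch in which ACGTG reads on both strands counts as 2 overlapping matches. Of 27303 windows, 1 per gene at the start farthest upstream, 43.1% held either motif and 18.6% held ACGTG. Among the 8 genes, 7 held either motif and 6 held ACGTG. The windows below are shown because they set steady risers (TMEM45A, FAM162A, WSB1 and PPFIA4) beside the gene not called higher (CITED2) and the one called only at 24 h (MAFF). Matches on either strand are in capitals.
TMEM45A: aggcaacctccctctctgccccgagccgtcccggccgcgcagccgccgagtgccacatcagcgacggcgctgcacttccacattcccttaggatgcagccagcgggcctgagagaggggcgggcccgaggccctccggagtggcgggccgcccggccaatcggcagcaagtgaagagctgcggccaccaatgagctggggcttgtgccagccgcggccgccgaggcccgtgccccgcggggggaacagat
FAM162A: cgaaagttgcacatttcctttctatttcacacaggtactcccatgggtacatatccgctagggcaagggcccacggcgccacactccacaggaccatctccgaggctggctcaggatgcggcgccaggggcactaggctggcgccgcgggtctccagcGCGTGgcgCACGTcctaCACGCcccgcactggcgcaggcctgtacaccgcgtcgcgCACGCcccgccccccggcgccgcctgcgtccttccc
WSB1: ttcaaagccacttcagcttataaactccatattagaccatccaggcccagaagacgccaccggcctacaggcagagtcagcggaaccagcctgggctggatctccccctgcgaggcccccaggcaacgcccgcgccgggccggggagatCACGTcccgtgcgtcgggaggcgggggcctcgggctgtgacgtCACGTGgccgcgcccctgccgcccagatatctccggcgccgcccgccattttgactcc
PPFIA4: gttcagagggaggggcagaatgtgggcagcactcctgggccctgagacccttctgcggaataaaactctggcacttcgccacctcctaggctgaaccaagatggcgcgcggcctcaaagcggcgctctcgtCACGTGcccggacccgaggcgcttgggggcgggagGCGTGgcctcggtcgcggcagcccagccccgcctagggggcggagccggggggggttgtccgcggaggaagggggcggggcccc
CITED2: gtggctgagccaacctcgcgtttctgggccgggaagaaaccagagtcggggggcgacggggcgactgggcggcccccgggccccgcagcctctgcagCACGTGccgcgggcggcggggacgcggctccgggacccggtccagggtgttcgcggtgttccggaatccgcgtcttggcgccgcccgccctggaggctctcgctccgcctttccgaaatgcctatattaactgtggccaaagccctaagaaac
MAFF: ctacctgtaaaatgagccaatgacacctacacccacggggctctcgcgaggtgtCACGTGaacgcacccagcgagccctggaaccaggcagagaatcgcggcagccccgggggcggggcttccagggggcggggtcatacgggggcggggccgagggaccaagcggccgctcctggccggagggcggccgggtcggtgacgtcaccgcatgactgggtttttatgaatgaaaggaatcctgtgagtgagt
In the order shown, they lie at chr3:100492369-100492618 (plus strand), chr3:122383932-122384181 (plus), chr17:27293864-27294113 (plus), chr1:203026241-203026490 (plus), chr6:139374649-139374898 (minus) and chr22:38201744-38201993 (plus).
The FAM162A window held 4 matches, 1 of ACGTG and 3 of GCGTG. WSB1 had 3 of ACGTG in 2 separate stretches and PPFIA4 had 2 of ACGTG and 1 of GCGTG. CITED2 and MAFF each held 1 palindromic stretch, while TMEM45A, the gene of the 9 that rose most, had 0 matches in its window. ERO1A, not printed, held 1 match of each motif and CXCR4 held 1 of GCGTG. A match describes letters in a window and is neither a binding site nor a cause, and a window without them says nothing on more distant sequence. Genes with a match were found among those called higher from 6 h, called at 24 h alone and not called higher.

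**Figure D2:**
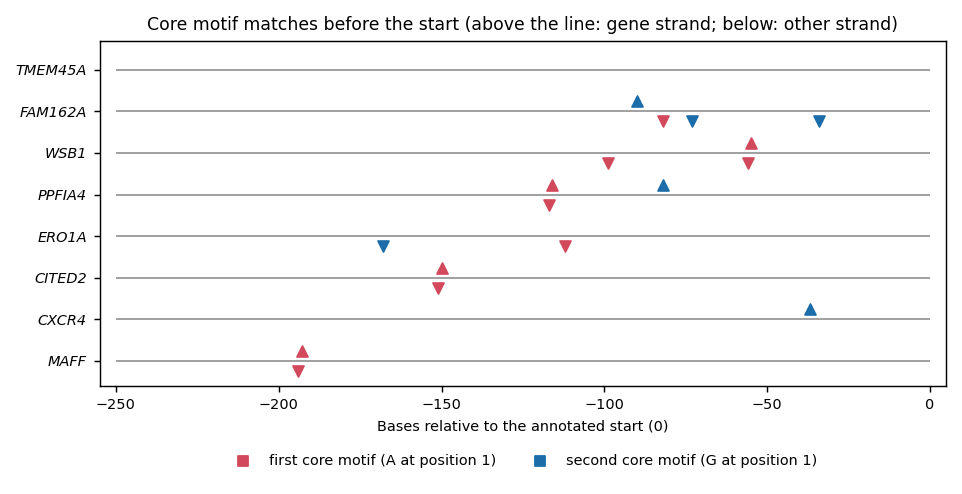
Position of the core motif matches in the 250 bases before the annotated start (x axis, bases relative to the start) for 8 genes. Red marks ACGTG and blue GCGTG, above the line on the gene's own strand and below it on the other strand. FAM162A has 4 matches and TMEM45A none.

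TMEM45A, which encodes a multi-pass membrane protein, had the largest change of the 9 genes at every time. Probe set 219410_at read 9.31 and 9.32 on the 0 h arrays, 11.37 and 11.37 at 6 h, 11.98 and 11.98 at 12 h, and 12.06 and 12.05 at 24 h on the log2 scale. The 0, 6 and 12 h arrays did not overlap, the 24 h arrays lay just above those of 12 h, and the SD of the replicates was at most 0.0097 (n = 2). For this and the genes below, such separation of arrays is a description, as its share among all probe sets was not counted. The rise was 4.15-fold at 6 h (log2 change 2.05 ± 0.05 SE, limma adjusted p = 3.39e-06), 6.34-fold at 12 h and 6.66-fold at 24 h (adjusted p = 5.26e-07 and 5.24e-07). On the log2 scale, 75.1% of the 24 h change was reached by 6 h. The step from 6 to 12 h, 0.61 ± 0.05, was also called (adjusted p = 0.0246), the only call among the 18 probe sets for that step, where 0.081% of all probe sets were called higher. From 12 to 24 h, a step at which 0 of the 18 were called (2 at an unadjusted p under 0.05 in limma; 0.144% of all probe sets were called in either direction), the change was 0.07, with a 95% interval of -0.05 to 0.19 (adjusted p = 0.542). As more RNA per cell and more cells expressing a gene cannot be told apart in bulk RNA, each of these changes is an average over the culture.

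FAM162A encodes a mitochondrial protein, also named HGTD-P, described as a HIF-responsive promoter of cell death. Its probe set 220942_x_at read 10.93 and 10.78 at 0 h, 12.03 and 12.02 at 6 h, 12.56 and 12.58 at 12 h, and 12.66 and 12.56 at 24 h. All hypoxic arrays lay above both 0 h arrays, and the 12 and 24 h arrays overlapped. It rose 2.25-fold at 6 h (1.17 ± 0.07, limma adjusted p = 0.000181), 3.28-fold at 12 h and 3.37-fold at 24 h, with a further rise between 6 and 24 h of 0.59 ± 0.07 (adjusted p = 0.0124).
The other FAM162A probe set, 221533_at, read 5.44 and 5.54 at 0 h, 5.45 and 5.77 at 6 h, 6.12 and 5.62 at 12 h, and 5.88 and 6.29 at 24 h. Its replicates spread widely, by up to 0.36 (SD, n = 2, at 12 h), and its log2 changes of 0.11, 0.38 and 0.59 had an SE of 0.20 each. None passed over all arrays (limma adjusted p = 0.842, 0.228 and 0.0867). The 24 h change passed with an intensity trend in the variance (adjusted p = 0.0218), with only the arrays of 0 and 24 h (0.0321) and without either 12 h array (0.0288 each). Probe sets ending in _x_at hold probes that can bind other sequences, and which of the pair follows the transcript better was not tested.

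ZNF395 encodes a zinc finger transcription factor. Probe set 218149_s_at read 8.63 and 8.59 at 0 h, 9.58 and 9.59 at 6 h, 9.84 and 9.91 at 12 h, and 9.87 and 9.83 at 24 h. Both arrays of each hypoxic time lay above those of 0 h, and 12 and 24 h overlapped. The rise was 1.97-fold at 6 h (0.98 ± 0.06, limma adjusted p = 0.000181), 2.41-fold at 12 h and 2.37-fold at 24 h. The 6 to 12 h step of 0.29 ± 0.06 did not pass (adjusted p = 0.0892). The probe set shared with FBXO16, 221123_x_at, changed by 0.78, 0.91 and 1.00 at 6, 12 and 24 h (limma adjusted p = 0.00646, 0.00141 and 0.00064) and cannot be assigned to either gene.

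PPFIA4 encodes liprin-alpha-4, a scaffold protein of a family known from synapses and cell adhesion sites. Probe set 214978_s_at read 7.43 and 7.58 at 0 h, 8.29 and 8.36 at 6 h, 8.75 and 8.88 at 12 h, and 8.73 and 8.79 at 24 h. The groups of 0, 6 and 12 h did not overlap, and those of 12 and 24 h did. The change was 0.82 ± 0.08 at 6 h (limma adjusted p = 0.00231), 1.31 ± 0.08 at 12 h (adjusted p = 0.0001) and 1.26 ± 0.08 at 24 h (adjusted p = 0.000104), or 1.76-, 2.47- and 2.39-fold. It was higher at 24 than at 6 h by 0.44 ± 0.08 (limma adjusted p = 0.0445), the third of the 18 probe sets called in that comparison beside TMEM45A (0.68 ± 0.05) and FAM162A, against 1.05% of all probe sets called higher. Of 5 other measured liprin genes, none was called higher at 6 or 24 h, where 1.95% and 7.86% of genes were. This count does not set them apart from other genes. PPFIA2 was at -0.35 at 12 h and -0.59 at 24 h (limma adjusted p = 0.0478 and 0.00789), and PPFIA1 and PPFIA3 did not pass at any time, with 24 h changes of 0.02 and 0.16. PPFIBP2 passed at 12 h only (0.28, adjusted p = 0.0369).

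ERO1A encodes the oxidase of the endoplasmic reticulum that passes electrons from protein disulfide isomerase to oxygen, the step that lets disulfide bonds form in secreted proteins. Probe set 218498_s_at read 7.99 and 7.90 at 0 h, 8.67 and 8.57 at 6 h, 8.80 and 8.81 at 12 h, and 8.83 and 8.85 at 24 h. No group overlapped with another. The rise was 1.6-fold at 6 h (0.68 ± 0.06, limma adjusted p = 0.00219), 1.82-fold at 12 h and 1.86-fold at 24 h (0.90 ± 0.06, adjusted p = 0.000191). The gain from 6 to 24 h, 0.22 ± 0.06, did not pass (adjusted p = 0.14, 95% interval 0.07 to 0.37). Of 9 measured genes of the same folding pathway, 0 passed at 6 h in limma (3 at an unadjusted p under 0.05). With 1.95% of genes called higher at 6 h, a count of 0 of 9 does not set them apart. PDIA6 and PRDX4 rose at 12 h (0.30 ± 0.05 and 0.30 ± 0.06) and at 24 h (0.30 and 0.35, limma adjusted p = 0.0106 and 0.00895). The share of genes called higher was 6.55% at 12 h and 7.86% at 24 h. PDIA6 is a disulfide isomerase and PRDX4 a peroxiredoxin that uses hydrogen peroxide in the same compartment. The paralog ERO1B was at -0.02, 0.00 and -0.09 (SE 0.10 each) and did not pass.

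WSB1 encodes a protein with WD40 repeats and a SOCS box that brings substrates to a cullin ubiquitin ligase. All 5 of its probe sets were called higher at all 3 times, by different amounts. Probe set 213406_at moved most, reading 7.90 and 7.86 at 0 h, 8.72 and 8.80 at 6 h, 8.65 and 8.58 at 12 h, and 8.66 and 8.66 at 24 h. Its change at 6 h was 0.88 ± 0.06 (limma adjusted p = 0.000421), with a 95% interval of 0.74 to 1.02. The probe set that moved least, 201294_s_at, read 8.92 and 8.98 at 0 h, 9.24 and 9.29 at 6 h, 9.22 and 9.25 at 12 h, and 9.23 and 9.24 at 24 h. Its 6 h change of 0.31 ± 0.06 (adjusted p = 0.0354) had an interval of 0.18 to 0.45, which does not overlap that of 213406_at. The other 3 probe sets changed by 0.44 to 0.57 at 6 h, 0.39 to 0.54 at 12 h and 0.38 to 0.52 at 24 h.
Between hypoxic times, 0 of the 5 WSB1 probe sets were called by limma (at an unadjusted p under 0.05, 2 from 6 to 12 h, 1 from 12 to 24 h and 0 from 6 to 24 h). Such calls were rare among all probe sets. The share called higher was 0.081% from 6 to 12 h and 1.05% from 6 to 24 h. From 12 to 24 h, 0.144% were called in either direction. A count of 0 of 5 does not set WSB1 apart. Of the 5, 4 had a larger log2 change at 6 h than at 24 h (the 6 h value was 92.0% to 115% of the 24 h value over the 5). The 24 minus 6 h differences lay between -0.10 and 0.04, with intervals that reach from -0.24 to 0.20. Only 213406_at was called at 6 h in each of the 8 fits that left out 1 array. The other 4 lost the 6 h call in 3 or 4 of them, with a highest adjusted p of 0.0757 to 0.265. At 24 h, 201294_s_at and 201296_s_at lost the call without either 0 h array (adjusted p 0.0650 to 0.125). At 12 h, 201294_s_at lost it without either 0 h array or 12 h replicate 2, 201295_s_at without 0 h replicate 2 and 210561_s_at without 0 h replicate 1 (0.0560 to 0.118).
Among 9 measured paralog, ligase and substrate genes, 0 were called higher in limma at 6, 12 or 24 h (1 was higher at an unadjusted p under 0.05 at each time), where 1.95%, 6.55% and 7.86% of genes were, so that a count of 0 of 9 does not set them apart. At 12 h 4 of the 9 were called lower, against 10.3% of genes. At 6 and 24 h 1 was, against 0.878% and 8.02%. With the dimmest 50% of probe sets dropped, the median change at 12 h was -0.06, beside 0.00 for all probe sets. Brighter probe sets thus lay lower at 12 h, and the part of this in the 4 calls was not tested. The WSB1 substrate gene DIO2, which encodes a thyroid hormone deiodinase, fell by 0.35, 0.31 and 0.37 at 6, 12 and 24 h (limma adjusted p = 0.0425, 0.0224 and 0.0109). HIPK2 (-0.51), RNF7 (-0.36) and ELOC (-0.31) were called lower at 12 h only (limma adjusted p = 0.00869, 0.0154 and 0.0234). The paralog WSB2 was at -0.03, -0.17 and -0.07 and did not pass.

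CXCR4 encodes the receptor of the chemokine CXCL12, known for guiding cell migration. Its 3 probe sets rose by similar amounts. Probe set 217028_at read 10.98 and 11.00 at 0 h, 11.50 and 11.47 at 6 h, 11.39 and 11.45 at 12 h, and 11.46 and 11.54 at 24 h. For 211919_s_at the values were 10.02 and 10.00, 10.40 and 10.42, 10.38 and 10.36, and 10.40 and 10.58, and for 209201_x_at they were 9.67 and 9.62, 10.05 and 10.07, 10.07 and 10.02, and 10.04 and 10.15, each from 0 to 24 h. Every hypoxic array lay above both 0 h arrays in all 3 probe sets, a separation whose share among all probe sets was not counted. The changes were 0.40 to 0.50 at 6 h (limma adjusted p = 0.00699 to 0.0333), 0.36 to 0.43 at 12 h and 0.44 to 0.52 at 24 h, or 1.28- to 1.43-fold over the course. Between hypoxic times, 0 of the 3 were called by limma in any of the 3 comparisons, and 0 had an unadjusted p under 0.05. As given for WSB1, few of all probe sets were called there, so this count does not set CXCR4 apart. The 24 minus 6 h differences of 0.01 to 0.08 had intervals within -0.13 and 0.25. Each of the 3 lost its 6 h call without any 1 of the 4 arrays of 0 and 6 h (highest adjusted p 0.0967 to 0.229), and each kept its 24 h call in all 8 fits that left out an array. At 12 h, 211919_s_at lost its call without either 0 h array (0.0851 and 0.105) and 209201_x_at without 0 h replicate 2 (0.0665). The ligand gene CXCL12 was at -0.09, 0.10 and -0.12. ACKR3, the other receptor for that ligand, was at 0.17, 0.19 and 0.18, with every hypoxic array again above both 0 h arrays. None of these passed the threshold. Of 6 measured relatives and partners of CXCR4, only GNAI2 was called. It was lower at 12 h (-0.25, limma adjusted p = 0.0326), where 10.3% of genes were called lower.

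**Figure D3:**
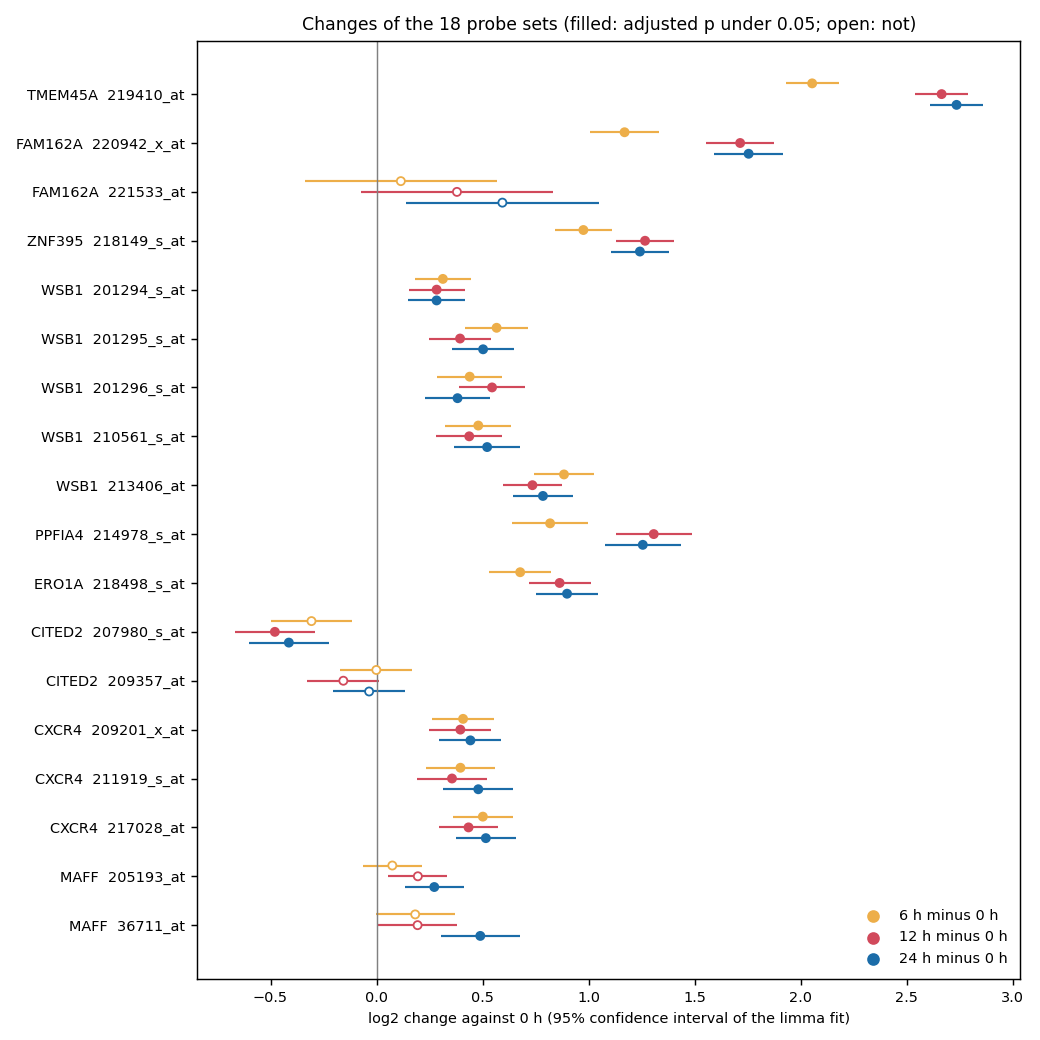
Log2 change against 0 h of each of the 18 probe sets (x axis) at 6, 12 and 24 h, with the 95% confidence interval of the limma fit. Filled circles passed an adjusted p of 0.05 and open circles did not. The 5 WSB1 probe sets range from 0.31 to 0.88 at 6 h, and the MAFF circles are filled at 24 h only.

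MAFF encodes a small Maf protein, a basic leucine zipper factor without a transactivation domain of its own that pairs with NRF2 or BACH proteins. Probe set 36711_at read 7.91 and 7.89 at 0 h, 8.09 and 8.08 at 6 h, 8.11 and 8.09 at 12 h, and 8.51 and 8.28 at 24 h. Probe set 205193_at read 6.88 and 6.90 at 0 h, 6.93 and 7.00 at 6 h, 7.08 and 7.08 at 12 h, and 7.20 and 7.12 at 24 h. In both, each hypoxic array lay above the 0 h arrays, a separation whose share among all probe sets was not counted. The 6 h changes of 0.18 ± 0.08 and 0.07 ± 0.06 did not pass (limma adjusted p = 0.297 and 0.602). Those at 12 h, 0.19 and 0.19, did not pass either (adjusted p = 0.146 and 0.065).
At 24 h, 36711_at was higher by 0.49 ± 0.08 (1.4-fold, limma adjusted p = 0.00747) and 205193_at by 0.27 ± 0.06 (1.21-fold, adjusted p = 0.0228). The step from 12 to 24 h was not called in either (0.30 and 0.08, adjusted p = 0.161 and 0.548), so the late call does not show that 24 h differed from 12 h. The call of 36711_at was lost without either 0 h array (highest adjusted p 0.0614), and that of 205193_at without 0 h replicate 1, 0 h replicate 2 or 24 h replicate 1 (highest 0.14). Conversely, 205193_at passed already at 12 h when the dimmest 25% or 50% of probe sets were dropped (adjusted p = 0.037 and 0.0139), and 36711_at did without either 24 h array (0.042 each). The F-test called 36711_at (adjusted p = 0.0284) and not 205193_at (0.0588). Of 7 measured relatives and partners, the large Maf gene MAF was at 0.56 ± 0.07 at 24 h (limma adjusted p = 0.00244). BACH2, a repressor that pairs with small Maf proteins, fell by 0.38 at 12 h and by 0.36 at 24 h (limma adjusted p = 0.00885 and 0.0104). MAFG, NFE2L2 and BACH1 did not pass at any time.

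CITED2 encodes a co-regulator that binds the coactivators EP300 and CREBBP in competition with HIF alpha subunits and so restrains HIF. It is often listed as induced by hypoxia, but neither of its probe sets was called higher here. Probe set 207980_s_at read 7.78 and 7.69 at 0 h, 7.52 and 7.33 at 6 h, 7.20 and 7.30 at 12 h, and 7.29 and 7.35 at 24 h. All 6 hypoxic arrays lay below both 0 h arrays, a separation whose share among all probe sets was not counted. The change was -0.31 ± 0.08 at 6 h (limma adjusted p = 0.103, but 0.0181 once the dimmest 50% of probe sets were dropped and 0.0366 when the variance prior followed intensity), and the probe set was lower by -0.48 ± 0.08 at 12 h (adjusted p = 0.00882) and -0.41 ± 0.08 at 24 h (adjusted p = 0.0151). The 12 h call was lost without 0 h replicate 1 (adjusted p = 0.0748). The 24 h call was lost without 0 h replicate 1, 0 h replicate 2 or 24 h replicate 1 (highest 0.11).
Probe set 209357_at read 8.57 and 8.56 at 0 h, 8.66 and 8.47 at 6 h, 8.41 and 8.41 at 12 h, and 8.52 and 8.53 at 24 h. Its changes of 0.00, -0.16 and -0.04 did not pass (limma adjusted p = 0.998, 0.188 and 0.808), and the interval at 24 h was -0.21 to 0.13. At 6 h, the first time sampled, its interval reached 0.17, and a rise that had ended before 6 h could not be seen. The paralog CITED1 was at -0.13, -0.03 and -0.08 and EP300 at 0.02, 0.02 and -0.03, none past the threshold, while CREBBP was called lower at 24 h (-0.31, adjusted p = 0.036).

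**Figure D4:**
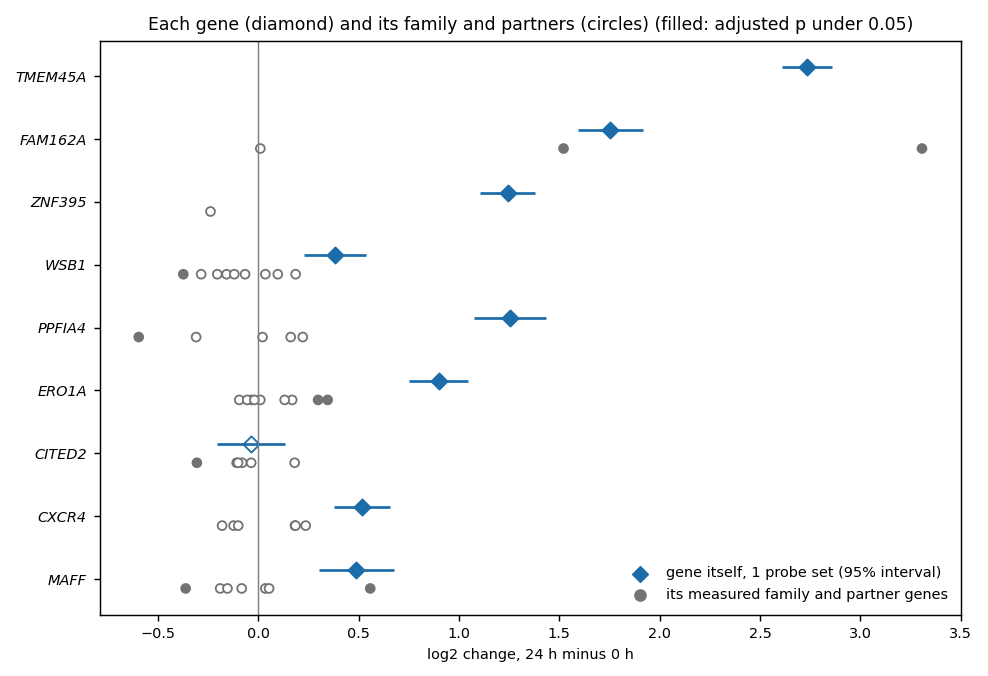
Log2 change from 0 to 24 h (x axis) of each gene by its probe set with the highest mean (diamond, with the 95% interval of the limma fit) and of its measured family and partner genes (circles), 1 row per gene. Filled symbols passed an adjusted p of 0.05. BNIP3 and BNIP3L are the filled circles at 3.31 and 1.52 in the FAM162A row.

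Relatives and partners of the 9 genes were read by 1 probe set per gene. Of 46 measured of 56 listed, 2 were called higher and 1 lower at 6 h, against 1.95% and 0.878% of 11963 genes read the same way in the fit to all probe sets. At 12 h 5 were higher and 7 lower, against 6.55% and 10.3%, and at 24 h 5 were higher and 4 lower, against 7.86% and 8.02%. Their median change was -0.03 at 24 h, and that of the 9 genes, read the same way, was 0.90. The 2 called higher at all 3 times were BNIP3 and BNIP3L, mitophagy receptor genes listed with FAM162A as mitochondrial death proteins. BNIP3L changed by 1.16, 1.50 and 1.52.

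In a wider list of HIF target genes, 32 of 43 measured genes of 46 listed were called higher at 6 h, 39 at 12 h and 37 at 24 h, against 1.95%, 6.55% and 7.86% of 11963 genes. At each time 1 was called lower (0.878%, 10.3% and 8.02% of genes). Their median changes were 0.94, 1.18 and 1.32. The 3 largest changes at 24 h were those of SPAG4 (3.59 ± 0.11), BNIP3 (3.31 ± 0.07) and PDK1 (2.42 ± 0.07). The 3 smallest were HMOX1, the heme oxygenase gene (-0.79 ± 0.06, limma adjusted p = 0.000266), RORA (-0.00) and ANGPTL4 (0.04). Set among them, TMEM45A (2.74) lay between BNIP3 and PDK1 at 24 h, and FAM162A (1.75) lay above the list's median. The other 7 genes lay below it.

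The genes with the nearest time courses were found by the distance between the 3 log2 changes of a gene and those of 11954 other genes, over 3 comparisons that share the 0 h arrays. They are given as a description. Nearest to TMEM45A were PDK1 (2.05, 2.32 and 2.42, at a distance of 0.47) and DDIT4, and nearest to ZNF395 were ADM (0.98, 1.18 and 1.15, at 0.13) and ANKZF1. ANKZF1 was also the nearest to PPFIA4 (distance 0.18), followed by PROM1. FAM162A lay nearest to BEND5 and PFKP (0.22 and 0.27), and ERO1A to TNIP1 and NFIL3 (0.04 and 0.07). For genes with small changes many others lie close. WSB1 by 201296_s_at was nearest to LIMD1 and ZNF137P, CXCR4 by 217028_at to CLK3 and HMMR, and MAFF by 36711_at to SLC7A7 and PEPD, all at distances under 0.08. No neighbours are given for CITED2, whose probe set with the highest mean did not pass the F-test (adjusted p = 0.34).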

How the data were processed

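RNA of SJRH30 cells was measured on 8 Affymetrix arrays, 2 at each of 4 times. The deposited table gives each probe set on a log2 scale. The submitters' processing notes name RMA as the authors' method, with a version not given in the sources used here. RMA usually equalises the distributions of arrays, so changes are relative to other transcripts of an array. Here the spread was not fully equal. The interquartile range was 3.68 and 3.63 on the 12 h arrays and 3.77 to 3.81 on the others. Of all probe sets called at 12 h, 39.2% were higher, and 47.6% after further quantile normalization. That step left 54 member changes against 0 h on the same side of the threshold and moved none. The table held 22277 probe sets, 62 of them controls. The number of arrays limits the precision. Names came from the platform annotation of 2016 (19064 probe sets with 1 symbol, 1043 with several, 2108 with none), checked through Entrez identifiers.

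With limma 3.58.1 in R 4.3.3, a mean per time was estimated for each of the 22215 other probe sets (4 residual degrees of freedom, prior 3.70), with no filter on dim probe sets. Tests were two-sided, with Benjamini-Hochberg adjustment within a comparison over all probe sets and a threshold of 0.05. A probe set was sorted by its calls against 0 h at 6, 12 and 24 h. All probe sets of the 9 genes are described. Whether their arrays overlapped between times is given as a description, as the share of all probe sets that separate in this way was not counted. Family, partner and target genes came from written lists, each read by its brightest probe set on average, and are named where called or where the closest paralog, and for HIF targets the 3 largest and 3 smallest changes at 24 h. A few uncalled partners were named after their values were seen. The 2 nearest genes were those with the smallest distance between log2 changes. The genes and lists were chosen with earlier results of these data known. A simulation drew independent normal noise around the mean of each probe set, with its SD within times. In 20 simulations, 200 of 22215 probe sets were changed at 6 h alone. There, 54% of changes of 0.5, 90.9% of changes of 1 and 99.5% of changes of 2 on the log2 scale were recovered. Of the simulated calls, 4.42% were false. Deviations shared by many probe sets of an array were not simulated, and the deposited data gave 600 calls at 6 h. The rates therefore hold for the simulated setting only. Normalization, variance prior, dim filters, features, samples fitted, the replicate number and each array left out were tried as alternatives.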

Additional observations from a re-analysis of the deposited data

How the results depend on the processing

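Of 834 single changes of member probe sets recomputed under the alternatives, 773 kept their direction and side of the threshold, 51 lost the call, 10 gained one and 0 turned. With each array left out in turn, the counts of the 18 probe sets called higher ran from 6 to 13 at 6 h, 9 to 14 at 12 h and 11 to 16 at 24 h. The count called lower ran from 0 to 1, between hypoxic times from 0 to 3 and in the F-test from 6 to 15. Calls that held in all 8 of these fits were 6 of 13 at 6 h, 8 of 14 at 12 h and 11 of 16 at 24 h, both directions counted. The 6 h count fell to 6 without 0 h replicate 1, 0 h replicate 2 or 6 h replicate 2 and to 7 without 6 h replicate 1. The F-test gave 6 without 0 h replicate 1 and 7 without 0 h replicate 2, and the count between hypoxic times was 0 without 6 h replicate 1 and 1 without 6 h replicate 2 or either 24 h replicate. The CITED2 count was 0 without 0 h replicate 1. With 1 probe set per gene 7, 7 and 8 were higher at 6, 12 and 24 h, 8 passed the F-test and 0 were lower, since only 9 of the 18 were then tested. Between hypoxic times 3 were called, against 7 when the dimmest 50% of probe sets were dropped and 6 when the variance prior followed intensity. The labels do not say that replicate numbers mark a shared batch. Deviations of same-numbered arrays correlated at -0.13 to 0.08 between times, and the replicate block gave 11, 13 and 15 higher at 6, 12 and 24 h. The F-test could not be made from only the arrays of the times compared.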
